A study of Glycine max with 30 samples.

Results

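The stretch described here holds 61 neighbouring genes of soybean (Glycine max) chromosome 16, of 55589 genes in the count tables. It takes in every identifier from Glyma.16G168000 to Glyma.16G174000, in identifier order, which are ranks 1680 to 1740 among the 2223 identifiers of that chromosome. The stretch was picked because many of its neighbours were higher in NRP(D/E)2-RNAi leaves, so the values from that family describe the members and test nothing, while the NRPE1-RNAi and NRPD1-RNAi families took no part in the choice. The tables carry no gene names, and 0 of the identifiers could be matched to the 59048 genes of RefSeq, so the members are given by identifier, with no role, sequence or coordinate, and transcripts of the targeted subunits and of leaf marker genes were not analysed here.

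Poly(A) RNA of mature leaves was sequenced from 6 groups of soybean plants. NRP(D/E)2-RNAi transgenic plants of cultivar Mustang (n = 6) were set against their non-transgenic siblings (n = 6), and NRPE1-RNAi transgenic plants of Mustang (n = 6) against their own non-transgenic siblings (n = 6). NRPD1-RNAi transgenic plants of cultivar Jack (n = 3) were set against non-transgenic Jack siblings (n = 3). An RNAi construct lowers a transcript and does not remove the gene, and the promoter, the plants' age and the number of independent transformants are not given in the sources used here.

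RNA-directed DNA methylation is the plant pathway in which small RNAs direct the methylation of cytosines, mainly in transposons and in some genes. RNA polymerase IV, whose largest subunit is NRPD1, makes the precursors of these small RNAs, and RNA polymerase V, whose largest subunit is NRPE1, makes the scaffold transcripts at the sites to be methylated. NRP(D/E)2 is the second-largest subunit and belongs to each of these polymerases.

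Library totals lay between 10049997 and 21763621 counts, and the stretch took between 0.0297% and 0.328% of a library. Levels are CPM, each gene's reads relative to its library's size, with scaling factors over all 30 libraries from the trimmed mean of M values (TMM). CPM values are not divided by gene length, so each level is compared only with the same gene in other libraries. Fold changes are log2 values from edgeR within a family, with standard errors (SE), and a gene is called at a Benjamini-Hochberg adjusted p under 0.05 over all genes tested. Siblings are separate plants, and p-values measure the spread between these plants only. In whole-leaf RNA, fewer cells of a type and less RNA per cell cannot be told apart. The sources do not say whether strand was used or how reads with several matches were counted, so reads shared by overlapping or near-identical neighbours could raise several members together, which was not tested.

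Of the 61 members, 43 had a mean of at least 1 CPM over all libraries. Another 14 had some counts but a mean under 1 CPM, and 4 had no count in any library: Glyma.16G168100, Glyma.16G168800, Glyma.16G168900 and Glyma.16G172000. The filter on low counts left 45 members to be tested in NRP(D/E)2-RNAi, 45 in NRPE1-RNAi and 24 in NRPD1-RNAi, with 22 tested in all 3 families and 47 in at least 1. The 43 expressed members were not at the same level in the 6 groups. All 43 reached a mean of 1 CPM among NRP(D/E)2-RNAi transgenic plants and 37 among the siblings, 42 among NRPE1-RNAi transgenic plants and 42 among the siblings, but 26 in NRPD1-RNAi transgenic leaves and 21 in non-transgenic Jack leaves. The group with the highest mean was NRPE1-RNAi transgenic for 28 of the 43 members. For 23 of the 43 the lowest mean was that of non-transgenic Jack siblings. The order of the groups over all genes was not computed. Most of the libraries that chose the 43 were Mustang, which favours Jack as the lowest.

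**Figure D1:**
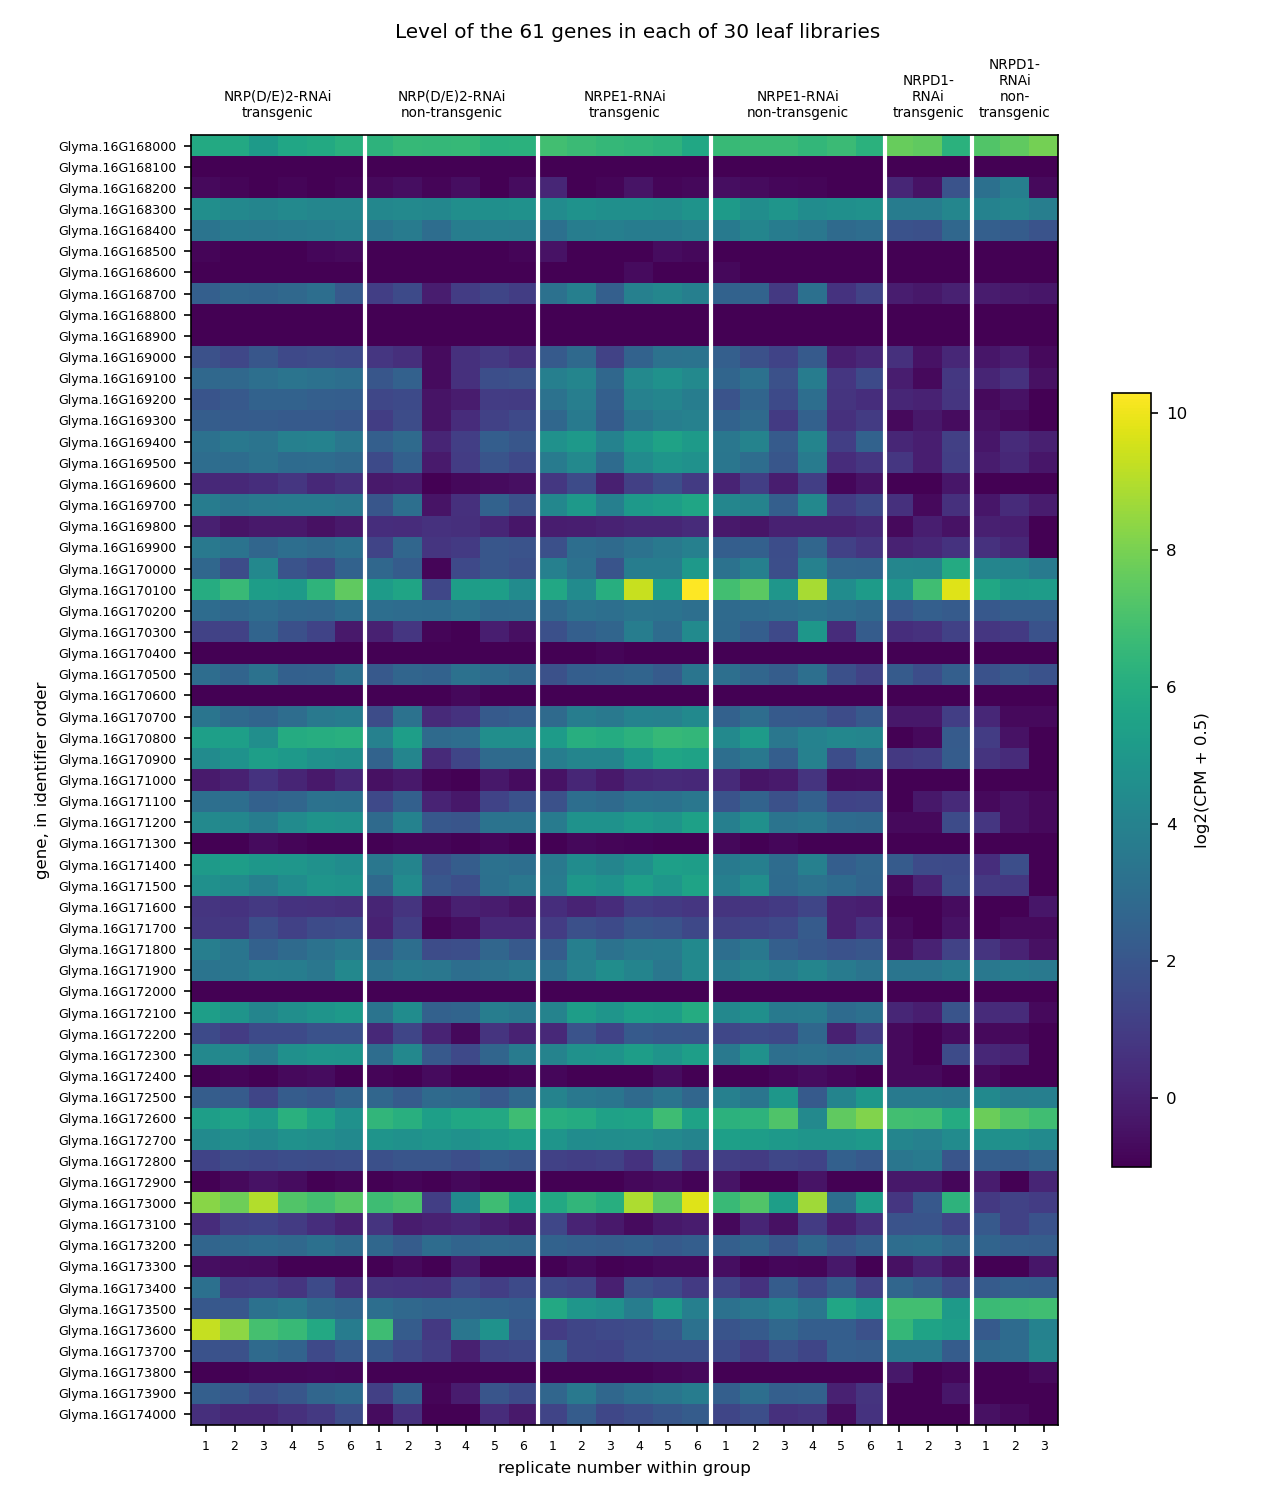
Level of each of the 61 members (rows, in identifier order) in each of the 30 libraries (columns, by group and replicate), as log2(CPM + 0.5) in colour. Most rows from Glyma.16G168700 to Glyma.16G169900 and from Glyma.16G170700 to Glyma.16G172300 are brightest in the transgenic Mustang groups and darkest in the Jack libraries, and 4 rows are dark throughout because they had no count.

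In NRP(D/E)2-RNAi leaves, the contrast that chose the stretch, the members were mostly higher than in non-transgenic siblings. Among the 45 members that passed the filter, 22 were called higher, where 8.6% of all tested genes were, and 2 were called lower, Glyma.16G168000 and Glyma.16G172700, where 7.25% of all tested genes were. A log2 fold change over 1 was found for 32 of the 45 (8.66% of all genes), and the median was 1.38 against -0.01 over all genes tested. Transgenic and non-transgenic libraries did not overlap for 13 members that were higher (3.87% of all genes) and for 1 that was lower, Glyma.16G172800 (3.99% of all genes). Over the 43 expressed members, read without the test's filter, 36 had the higher mean in transgenic leaves, 28 of them by more than 2-fold (9.21% of all expressed genes), and 7 the lower mean, 0 by more than 2-fold (3.18% of all expressed genes). These counts restate the choice of the stretch. The count of 22 was 14 without non-transgenic replicate 4 and 14 with the replicate number as a block.

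The 10 members with the largest change in NRP(D/E)2-RNAi lay along the whole stretch. They were Glyma.16G173600 (log2 fold change 3.04 ± 1.08, SE), Glyma.16G170300 (2.53 ± 0.71), Glyma.16G170900 (2.14 ± 0.50), Glyma.16G169600 (2.09 ± 0.46), Glyma.16G173000 (1.89 ± 0.72), Glyma.16G168700 (1.89 ± 0.31), Glyma.16G171400 (1.85 ± 0.33), Glyma.16G171100 (1.79 ± 0.45), Glyma.16G169200 (1.77 ± 0.41) and Glyma.16G171700 (1.69 ± 0.49). Transgenic and non-transgenic plants were separate for some of these members and overlapped for others. Glyma.16G173600, first by fold change, spanned 12.8, 111 and 632 CPM (lowest, median and highest) in the 6 transgenic libraries and 1.34, 7.28 and 109 CPM in the 6 non-transgenic libraries, and the groups overlapped. Glyma.16G168700 had 3.89, 5.97 and 7.86 CPM in transgenic libraries against 0.448, 1.59 and 2.43 CPM in non-transgenic libraries, with no overlap. For Glyma.16G171400 the values were 21.7, 30.3 and 38.9 CPM in transgenic libraries and 3.01, 8.28 and 16.7 CPM in non-transgenic libraries, again with no overlap. The most negative values of this family belonged to Glyma.16G172600 (-0.62 ± 0.26), Glyma.16G168000 (-0.59 ± 0.15) and Glyma.16G172500 (-0.44 ± 0.21).

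NRPE1-RNAi leaves, which had no part in the choice, showed most of the same members higher, but few passed the test. Of 45 members tested, 2 were called higher (1.19% of all tested genes were) and 0 lower (0.776% of all genes). At an unadjusted p under 0.05, 21 were higher and 2 lower, against 7.6% and 7.41% of all genes. A log2 fold change over 1 was found for 24 of the 45 members (4.61% of all genes) and one under -1 for 1 member (2.02% of all genes). The median log2 fold change was 1.10, against -0.01 over all genes, and 0.55 without transgenic replicate 6. Groups did not overlap for 0 of the 45 members in either direction, where 1.29% of all genes did not overlap with higher and 0.9% with lower values. Without the test's filter, 33 of the 43 expressed members had the higher mean in transgenic leaves, 23 of them by more than 2-fold (5.74% of all expressed genes), and 10 the lower mean, 1 of them by more than 2-fold (2.14%).

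The 2 members called in NRPE1-RNAi are neighbours, Glyma.16G170800 and Glyma.16G170700. Glyma.16G170800 had 35.9, 71.3 and 94.5 CPM (lowest, median and highest) in transgenic libraries and 10.8, 17.8 and 36.0 CPM in non-transgenic libraries. The groups overlapped only in that the highest non-transgenic library lay just above the lowest transgenic one. Its log2 fold change was 1.86 ± 0.29 (SE, n = 6 each, edgeR adjusted p = 0.00391). Glyma.16G170700 had 6.96, 14.2 and 19.9 CPM in transgenic libraries and 2.61, 4.03 and 7.81 CPM in non-transgenic libraries, with the same kind of narrow overlap. Its log2 fold change was 1.58 ± 0.28 (edgeR adjusted p = 0.00976). In the NRP(D/E)2-RNAi family Glyma.16G170800 had 23.4, 50.4 and 69.3 CPM in transgenic libraries against 6.91, 19.1 and 40.1 CPM in non-transgenic libraries (log2 fold change 1.38 ± 0.40). Glyma.16G170700 had 5.74, 8.88 and 12.7 CPM against 0.768, 3.35 and 9.14 CPM in the same groups (1.30 ± 0.46), and was not among the 22 called there.

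Just above the threshold in NRPE1-RNAi stood a further set of members of like size of change. Glyma.16G172100 (log2 fold change 1.45 ± 0.35, edgeR adjusted p = 0.0537), Glyma.16G170900 (1.86 ± 0.45, edgeR adjusted p = 0.0542), Glyma.16G172300 (1.32 ± 0.32, edgeR adjusted p = 0.0569), Glyma.16G171500 (1.49 ± 0.38, edgeR adjusted p = 0.0673) and Glyma.16G171400 (1.41 ± 0.36, edgeR adjusted p = 0.0754) were named after their values were seen. Which of them passed depended on single plants and on the tool. The count of 2 became 11 without non-transgenic replicate 4, 9 without transgenic replicate 1, 6 without non-transgenic replicate 2, 8 with all 30 libraries in 1 model and 15 with DESeq2. It was 1 with the replicate number as a block, where Glyma.16G170700 had an edgeR adjusted p of 0.0756.

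**Figure D2:**
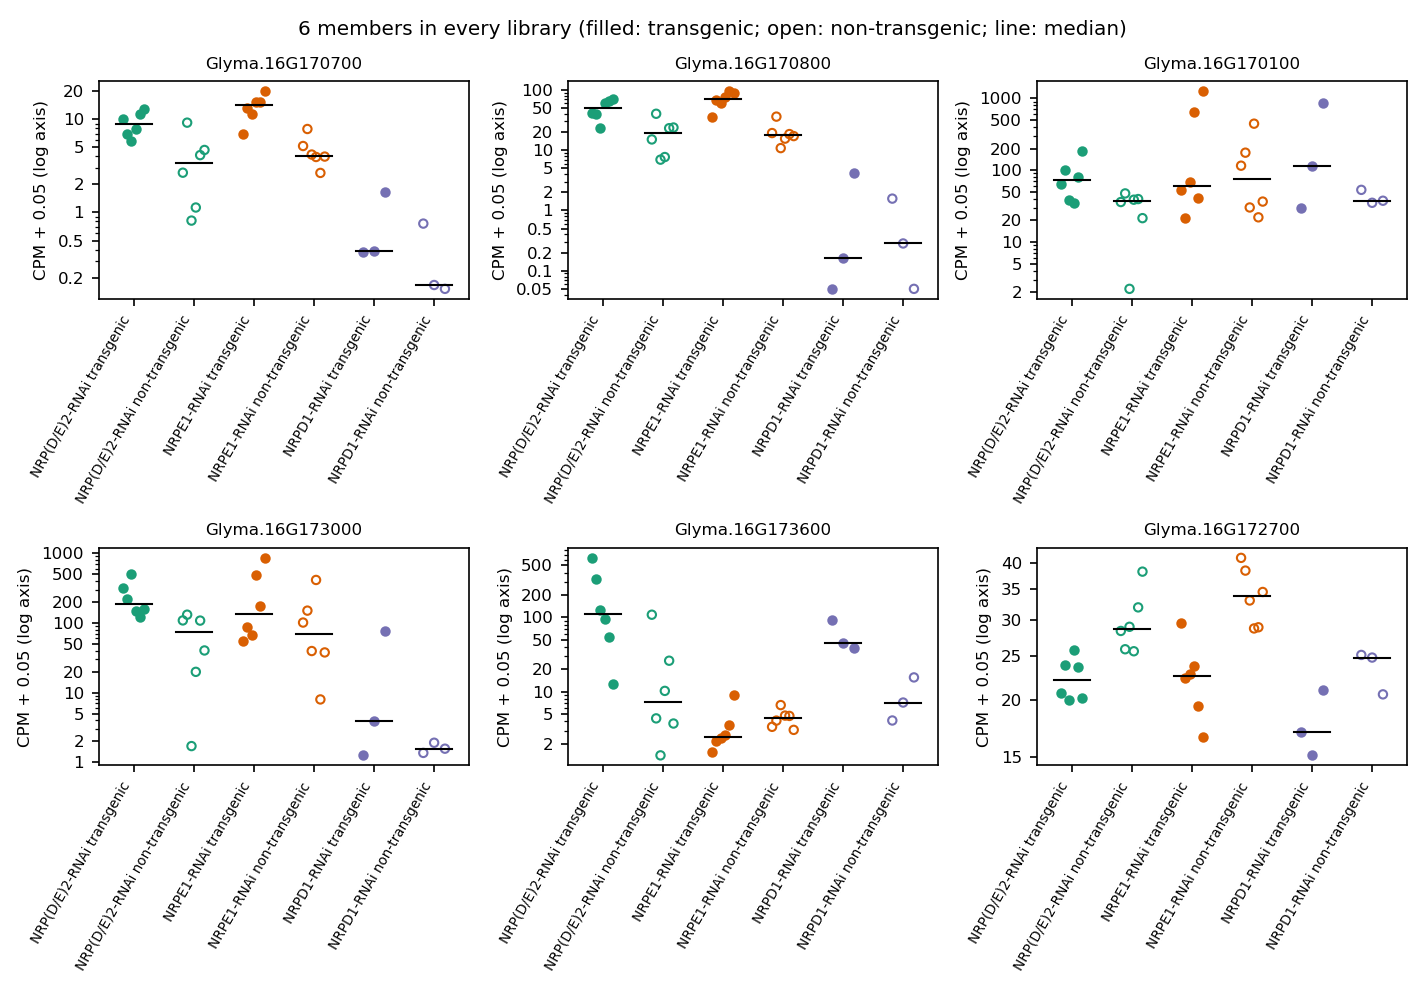
CPM + 0.05 (log axis) of 6 members in every library, with filled points for transgenic plants, open points for non-transgenic siblings and a line at the median of each group. Glyma.16G170700 and Glyma.16G170800 are higher in transgenic plants of the Mustang families and near the floor in Jack, Glyma.16G170100 and Glyma.16G173000 are set by a few high plants, Glyma.16G173600 is high in transgenic plants of the NRP(D/E)2-RNAi and NRPD1-RNAi families, and Glyma.16G172700 lies lower in transgenic plants.

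Within the stretch most members that were higher lay in a pair of runs, and 4 that were lower lay in another. Of 32 members with a log2 fold change over 1 in NRP(D/E)2-RNAi, 10 lay in the first run and 13 in the second. The rest, among them Glyma.16G173000 and Glyma.16G173600, lay outside, as did Glyma.16G168000, called lower there. The bounds of these runs were set after the values were seen, so their counts are descriptions. From Glyma.16G168700 to Glyma.16G169900, 13 identifiers of which 9 were expressed, the log2 fold change was over 1 for 10 of 10 tested members in NRP(D/E)2-RNAi (median 1.66) and for 10 of 10 in NRPE1-RNAi (median 1.60). Summed over the 9 expressed members, NRP(D/E)2-RNAi transgenic libraries held 58.8, 63.2 and 70.1 CPM (lowest, median and highest) against 3.65, 22.1 and 39.7 CPM in their siblings. The transgenic plants were close together and did not overlap with the siblings, which spread over 10.9-fold. NRPE1-RNAi transgenic libraries held 66.3, 158 and 206 CPM against 10.7, 46.6 and 92.3 CPM, and these groups overlapped. In Jack the sums were 6.06, 3.28 and 9.18 CPM in transgenic replicates 1 to 3 and 3.65, 5.25 and 1.83 CPM in non-transgenic replicates 1 to 3, so every Jack library lay below every NRPE1-RNAi library, and 0 of these members passed the filter there.

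The second run, from Glyma.16G170700 to Glyma.16G172300, had 17 identifiers, of which 13 were expressed. The log2 fold change was over 1 for 13 of 14 tested members in NRP(D/E)2-RNAi (median 1.38) and for 10 of 15 in NRPE1-RNAi (median 1.22). Summed over the 13 expressed members, NRP(D/E)2-RNAi transgenic libraries held 186, 249 and 286 CPM and their siblings 41.0, 90.2 and 189 CPM, with an overlap made by non-transgenic replicate 2 alone. NRPE1-RNAi transgenic libraries held 143, 315 and 436 CPM and their siblings 76.0, 108 and 204 CPM, with an overlap of transgenic replicate 1 with non-transgenic replicate 2. Jack transgenic replicates 1 to 3 held 17.3, 16.6 and 39.3 CPM against 20.6, 20.8 and 12.1 CPM in non-transgenic replicates 1 to 3. One member of this run, Glyma.16G171900, differed from the members around it. It had means of 12.8 ± 3.39 and 9.92 ± 1.44 CPM (SD, n = 6 each) among NRP(D/E)2-RNAi transgenic and non-transgenic plants, a log2 fold change of 0.40 ± 0.17, and stood at 11.0 ± 1.65 CPM in transgenic and 11.7 ± 0.98 CPM in non-transgenic Jack leaves (SD, n = 3 each).

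The third run, Glyma.16G172500, Glyma.16G172600, Glyma.16G172700 and Glyma.16G172800, was lower by sign for 4 of 4 members in each Mustang family, with medians of -0.41 for NRP(D/E)2-RNAi and -0.71 for NRPE1-RNAi. The summed level was 53.9, 70.3 and 104 CPM in NRP(D/E)2-RNAi transgenic libraries against 80.7, 98.6 and 156 CPM in their siblings, and 68.3, 86.9 and 141 CPM in NRPE1-RNAi transgenic libraries against 53.8, 172 and 357 CPM in their siblings, with overlap in each family. In Jack this run was as abundant as in Mustang by value: transgenic replicates 1 to 3 held 154, 152 and 96.9 CPM and non-transgenic replicates 1 to 3 held 264, 185 and 155 CPM. Glyma.16G172700 was nearest to a call in NRPE1-RNAi, with 16.5, 22.5 and 29.5 CPM in transgenic and 28.6, 33.7 and 40.9 CPM in non-transgenic libraries. The groups overlapped by 1 transgenic library, and the log2 fold change of -0.60 ± 0.14 had an edgeR adjusted p of 0.0511, between 0.00467 and 0.123 over the alternatives. Glyma.16G172600 (-1.08 ± 0.49, edgeR adjusted p = 0.329) and Glyma.16G172500 (-0.83 ± 0.42, edgeR adjusted p = 0.379) were not called.

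**Figure D3:**
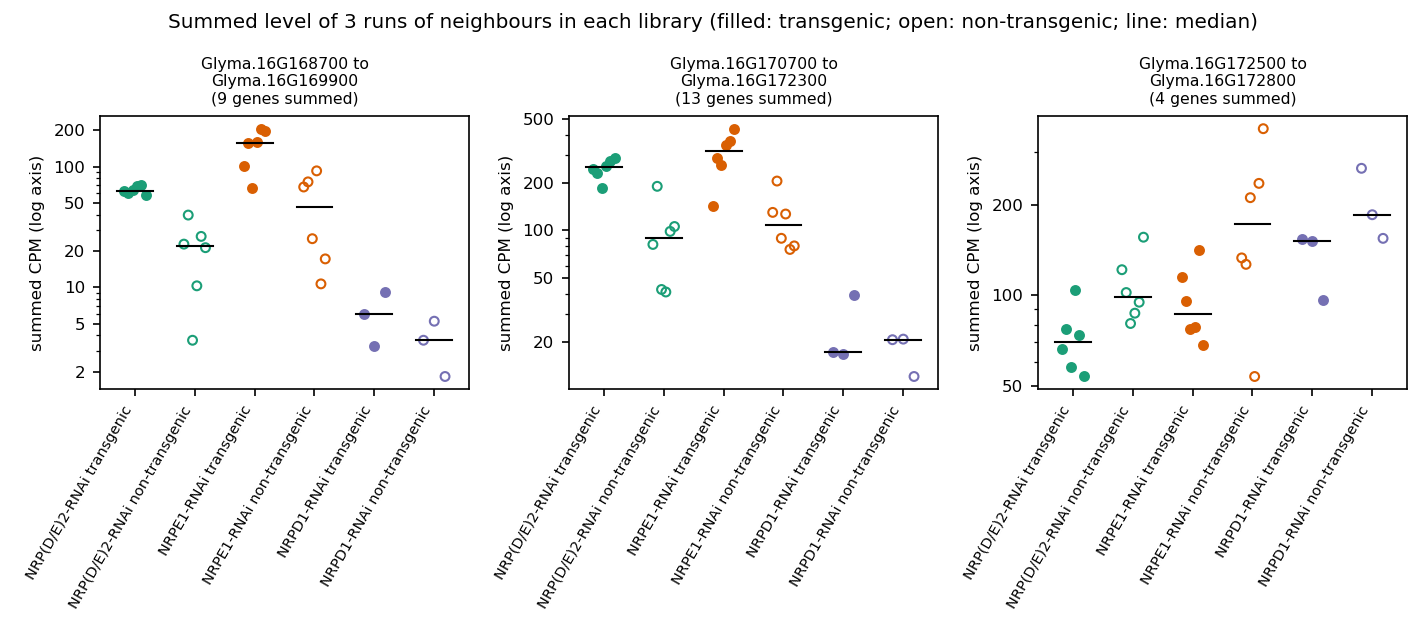
Summed CPM (log axis) of the expressed members of each of the 3 runs in every library, with filled points for transgenic plants, open points for non-transgenic siblings and a line at the median of each group. The first run separates NRP(D/E)2-RNAi transgenic libraries (58.8 to 70.1 CPM) from their siblings (3.65 to 39.7 CPM) and lies under 10 CPM in every Jack library, whereas the third run is lower at the median in transgenic than in non-transgenic plants of each family.

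3 members between and after the runs varied far more between plants than between groups, or differed in direction between the families. Glyma.16G170100 spanned 34.8, 72.3 and 186 CPM in NRP(D/E)2-RNAi transgenic libraries and 2.18, 37.3 and 47.4 CPM in their siblings. In NRPE1-RNAi transgenic replicates 4 and 6 it stood at 640 and 1249 CPM, while the other 4 transgenic replicates lay between 21.4 and 67.9 CPM, and the non-transgenic siblings reached 444 CPM in replicate 4. The edgeR log2 fold change of 1.34 ± 1.07 there had an adjusted p of 0.595. Glyma.16G173000 was highest in the same plants, with 482 and 859 CPM in NRPE1-RNAi transgenic replicates 4 and 6 and 414 CPM in non-transgenic replicate 4 (log2 fold change 1.21 ± 0.91, edgeR adjusted p = 0.569).

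Glyma.16G173600 was low in both NRPE1-RNAi groups and high in transgenic plants of the other families. It had 1.5, 2.44 and 8.89 CPM in NRPE1-RNAi transgenic libraries and 3.02, 4.36 and 6.57 CPM in their siblings (log2 fold change -0.31 ± 0.40, edgeR adjusted p = 0.756). NRPD1-RNAi transgenic replicates 1 to 3 had 90.9, 45.6 and 38.7 CPM, and non-transgenic Jack replicates 1 to 3 had 4.05, 7.11 and 15.5 CPM. These Jack groups did not overlap, and the log2 fold change of 2.74 ± 0.55 (n = 3 each) had an edgeR adjusted p of 0.202, while DESeq2 gave 2.72 with an adjusted p of 0.000183.

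In NRPD1-RNAi leaves of Jack the tested members showed no shift at the median, and most members of the first and second runs did not pass the filter. Of 24 members tested with edgeR, 0 were called in either direction, where 0.0164% of all tested genes were called higher and 0% lower. At an unadjusted p under 0.05, 4 were higher and 0 lower, against 6.23% and 1.59% of all genes, and DESeq2 called 1, Glyma.16G173600. The median log2 fold change of the tested members was -0.01, against 0.01 over all genes. A value over 1 was found for 6 of the 24 (1774 of 30539 among all genes) and one under -1 for 1 (387 of 30539). No member of the first run and 4 of the second were tested, so this median hardly covers those runs. The groups of 3 did not overlap for 4 tested members that were higher (7.67% of all genes), Glyma.16G170000, Glyma.16G170900, Glyma.16G173200 and Glyma.16G173600, and for 1 that was lower, Glyma.16G172500 (5.44% of all genes). Without the filter, 28 of the 43 expressed members had the higher mean in transgenic Jack leaves, 14 of them by more than 2-fold (8.34% of all expressed genes), and 15 the lower mean, 1 of them by more than 2-fold (1.28%).

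A single Jack plant carried much of what was higher there. Transgenic replicate 3 was the highest of the 6 Jack libraries for 25 of the 43 expressed members, and non-transgenic replicate 3 the lowest for 15. The share of all genes for which these plants were highest or lowest was not computed, so the counts are not particular to the stretch. Without transgenic replicate 3, edgeR called 54 genes over the whole table in NRPD1-RNAi, against 5 with it. The stretch took 0.126% of the counts of transgenic replicate 3, against 0.0478% and 0.0510% in the other transgenic libraries and 0.0414% to 0.0519% in the non-transgenic ones. Glyma.16G170100 had 29.2, 112 and 847 CPM in transgenic replicates 1 to 3 and 53.1, 35.1 and 37.5 CPM in non-transgenic replicates 1 to 3. Its log2 fold change of 3.06 ± 1.15 (edgeR adjusted p = 0.571) was 0.75 without transgenic replicate 3. Glyma.16G173000 had 1.21, 3.85 and 77.9 CPM in transgenic replicates 1 to 3 and 1.32, 1.86 and 1.52 CPM in the siblings, and its log2 fold change of 4.23 ± 1.52 (edgeR adjusted p = 0.544) was 0.69 without that plant.

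The difference between the NRPE1-RNAi effect and the NRPD1-RNAi effect was tested over the 18 libraries of these families. None of the 47 members tested was called (0 of 47, where 0.158% of all genes were called by edgeR), and at an unadjusted p under 0.05 the NRPE1-RNAi effect was the greater for 2 members and the smaller for 1. These shares were 3.07% and 3.69% among all genes. In the Jack family alone 24 members passed the filter, with 0 of the first run and 4 of the second. Most members of those runs had too few Jack counts for a difference to be called readily, so no conclusion is drawn for them. Glyma.16G173600 had the lowest adjusted p, with an NRPE1-RNAi effect smaller by 2.99 ± 0.72 on the log2 scale and an edgeR adjusted p of 0.156. It was the 1 member called by DESeq2 (difference -3.03, adjusted p = 0.00778), and the 1 called by edgeR without NRPE1-RNAi transgenic replicate 6 (difference -3.54, adjusted p = 0.0146). For Glyma.16G170800 the difference was 0.49 ± 1.31 and for Glyma.16G170700 it was 0.28 ± 0.95 (SE). Construct, cultivar and family cannot be told apart in this comparison.

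Non-transgenic leaves already differed between the cultivars over this stretch. Compared with non-transgenic Mustang siblings of the NRPE1-RNAi family, non-transgenic Jack siblings had 31 of 47 tested members called lower (22.5% of all genes were) and 5 called higher (22.7% of all genes). The filter over these 18 libraries kept 47 members, while 24 passed in the Jack family alone. Most members called lower passed only through the Mustang libraries, where they were high. Their calls and the median below therefore describe members partly chosen for a high Mustang level. The median log2 difference over the members was -3.16, or -3.02 with the 3 tested members that had no Jack count set at their bound, against -0.08 over all genes. With libraries scaled by total counts the median over all genes moved to -0.47, the share of calls that were higher in Jack changed to 5282 of 18976 from 7889 of 15720, and the members had 32 calls lower, 5 higher and a median of -3.55. Of the 43 expressed members, 22 had a mean under 1 CPM in non-transgenic Jack leaves, and all 22 had at least 1 CPM in NRPE1-RNAi siblings, which 6.53% of all expressed genes did, and 18 of them also in NRP(D/E)2-RNAi siblings. Expressed genes were chosen by a mean over all 30 libraries, most of them Mustang. A gene low in Jack thus enters mainly through Mustang, so that all 22 reached 1 CPM there largely follows from the choice. The 6.53% is over genes chosen by the same rule. For 18 of the 43, all 3 non-transgenic Jack libraries lay below all 12 non-transgenic Mustang libraries (13.3% of all expressed genes), and for 4 they lay above (14.2%). Cultivar and family cannot be told apart in these values.

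The members with the lowest adjusted p between the cultivars mostly sat in the runs that were higher in transgenic Mustang plants. Glyma.16G172100 had 0.811, 0.816 and 0.102 CPM in the 3 non-transgenic Jack libraries and 7.22, 12 and 24.3 CPM (lowest, median and highest) in the 6 Mustang libraries, with no overlap. The log2 difference was -4.59 ± 0.75 (SE, edgeR adjusted p = 0.000259). Glyma.16G171100 had 0.101, 0.233 and 0.102 CPM in Jack and 1.94, 3.13 and 5.48 CPM in Mustang (-4.53 ± 0.76, edgeR adjusted p = 0.000313), again without overlap. Glyma.16G169400, in the first run, had 0.304, 0.816 and 0.508 CPM in Jack and 1.60, 8.01 and 16.7 CPM in Mustang (-4.09 ± 0.77, edgeR adjusted p = 0.000716). Both members that were called in NRPE1-RNAi were low in Jack as well. Glyma.16G170800 had 1.52, 0.233 and 0 CPM in Jack against 10.8, 17.8 and 36.0 CPM in Mustang (-5.02 ± 1.00, edgeR adjusted p = 0.00106), and Glyma.16G170700 had 0.710, 0.117 and 0.102 CPM in Jack against 2.61, 4.03 and 7.81 CPM in Mustang (-3.83 ± 0.66, edgeR adjusted p = 0.000391).

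Several members had so few Jack reads that only ratios of counts can be given. The ratio is stated here as NRPE1-RNAi non-transgenic Mustang over non-transgenic Jack, with a 95% interval for counting error only. Glyma.16G169200 had 3 counts over the Jack libraries against 334 over the Mustang libraries, a ratio of 36.2 (12.3 to 176), and Glyma.16G169300 had 3 against 316, a ratio of 34.2 (11.6 to 167). Glyma.16G171700 had 2 counts in Jack and 182 in Mustang, a ratio of 29.6 (8.06 to 246). Glyma.16G172200 had 2 in Jack and 238 in Mustang, a ratio of 38.6 (10.6 to 321). No count in non-transgenic Jack leaves was found for a further 3 of the tested members. Against a floor of 3 counts over the Jack group (0.106 CPM), and with the Mustang mean taken without its counting error, Glyma.16G173900 was at least 38.5-fold lower in Jack, Glyma.16G169600 at least 7.24-fold lower and Glyma.16G171000 at least 4.40-fold lower. In the transgenic plants of Jack these genes stayed near the floor, with 0.102 CPM as the mean of Glyma.16G173900 and of Glyma.16G169600 and 0 for Glyma.16G171000.

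Of the 15 members with the lowest adjusted p, Glyma.16G168200 was the 1 that was higher in Jack. The others included Glyma.16G172300 (-4.77 ± 0.93), Glyma.16G171200 (-4.53 ± 0.88) and Glyma.16G168700 (-3.48 ± 0.75), and, with a smaller difference, Glyma.16G170200 (-0.88 ± 0.17), which had 3.75, 4.55 and 4.47 CPM in Jack and 6.80, 7.71 and 9.19 CPM in Mustang.

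Higher levels in Jack were found at the ends of the stretch. Glyma.16G168200 had 8.52, 14.1 and 0.102 CPM in the 3 non-transgenic Jack libraries and no more than 0.17 CPM in the 6 Mustang libraries of the NRPE1-RNAi family, so that 1 Jack library lay within the Mustang range. Its log2 difference was 6.58 ± 1.15 (edgeR adjusted p = 0.000414). Glyma.16G173500 had 103, 107 and 113 CPM in Jack and 8.69, 13.4 and 50.8 CPM in Mustang, with no overlap (2.31 ± 0.53, edgeR adjusted p = 0.00265). Glyma.16G168000 (1.02 ± 0.26), Glyma.16G173100 (2.15 ± 0.69) and Glyma.16G173700 (1.75 ± 0.39) were also called higher. Members before the first run had smaller differences in the other direction, with -0.76 ± 0.17 for Glyma.16G168300 and -1.45 ± 0.33 for Glyma.16G168400.

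**Figure D4:**
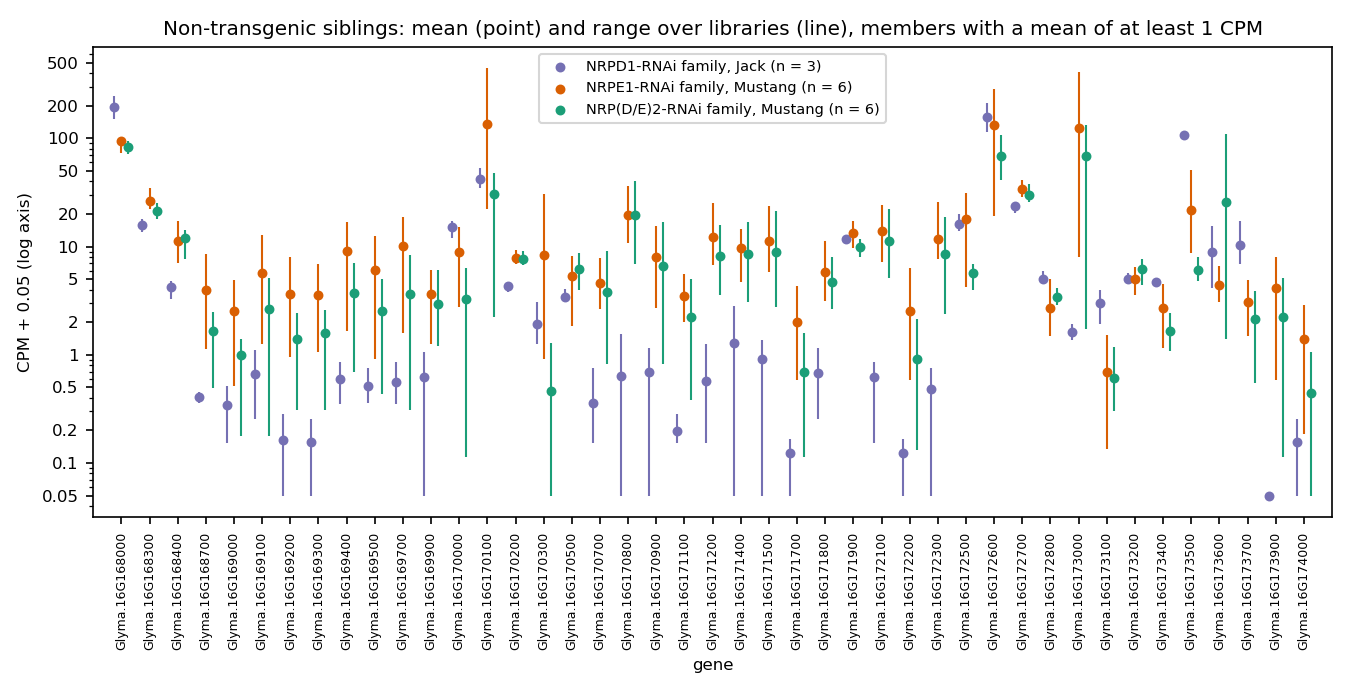
CPM + 0.05 (log axis) of the 43 expressed members in non-transgenic leaves of the NRPD1-RNAi family (Jack, n = 3), the NRPE1-RNAi family (Mustang, n = 6) and the NRP(D/E)2-RNAi family (Mustang, n = 6), with points at the mean and lines from the lowest to the highest library. From Glyma.16G168700 to Glyma.16G172300 most Jack points lie under 1 CPM and below the Mustang lines, while Glyma.16G168000, Glyma.16G173500 and Glyma.16G173700 lie above them.

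Plants of 1 group differed from each other more over this stretch than over other genes, and the same plants tended to be high or low for many members at once. The median SD of log2(CPM + 0.5) between the 6 plants was 0.34 over the 43 members in NRP(D/E)2-RNAi transgenic leaves, against 0.28 over all expressed genes, and 0.72 in their siblings, against 0.32. In NRPE1-RNAi it was 0.64 in transgenic leaves, against 0.30 over all genes, and 0.75 in their siblings, against 0.34. In Jack, with 3 plants a group, it was 0.59 in transgenic leaves, against 0.33, and 0.30 in their siblings, against 0.27. Among NRP(D/E)2-RNAi siblings, non-transgenic replicate 3 was the lowest for 25 of the 43 members and replicate 2 the highest for 26. In NRPE1-RNAi transgenic leaves replicate 6 was the highest for 20 and replicate 1 the lowest for 23, and among their siblings replicate 4 was the highest for 20 and replicate 5 the lowest for 22. How often these plants were highest or lowest over all genes was not computed. The stretch as a whole took 0.0974% to 0.172% of all reads counted for NRP(D/E)2-RNAi transgenic plants and 0.0297% to 0.0773% in their siblings, with no overlap, and 0.0635% to 0.328% in NRPE1-RNAi transgenic libraries against 0.0550% to 0.143% in their siblings, with overlap. A few abundant members weigh heavily in this share. Glyma.16G173000, Glyma.16G173600 and Glyma.16G170100 had means of 246, 208 and 83.9 CPM in NRP(D/E)2-RNAi transgenic leaves. In NRPE1-RNAi transgenic replicate 6, Glyma.16G170100 and Glyma.16G173000 had 1249 and 859 CPM. What sets the high and low plants apart was not tested.

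Set side by side, the Mustang families, which share no plants, had 44 members tested in each. The log2 fold change was over 1 in each family for 24 of the 44, above 0 in each for 32 and below 0 in each for 6. Taken family by family, it was over 1 for 8.66% of all tested genes in NRP(D/E)2-RNAi and for 4.61% in NRPE1-RNAi. It was above 0 for 15472 of 31773 and for 15200 of 31440 genes. The share of all genes that met these rules in both families at once was not computed. Of the 22 members called higher in NRP(D/E)2-RNAi, 19 had a log2 fold change over 1 in NRPE1-RNAi. Of 31 with a log2 fold change over 1 in NRP(D/E)2-RNAi, 2 were called in NRPE1-RNAi, where 1.19% of all tested genes were called higher. The 22 and the 31 come from the contrast that chose the stretch, and neighbours that are high in the same plants are not independent. These counts are descriptions only. Glyma.16G170300 had the larger fold change in NRP(D/E)2-RNAi, but the higher level at the median in NRPE1-RNAi leaves. It had 0.358, 1.87 and 5.68 CPM in NRP(D/E)2-RNAi transgenic and 0, 0.333 and 1.25 CPM in non-transgenic libraries (log2 fold change 2.53 ± 0.71). In NRPE1-RNAi it had 2.85, 6.59 and 20.8 CPM in transgenic and 0.869, 4.48 and 30.8 CPM in non-transgenic libraries (log2 fold change 0.14 ± 0.74, edgeR adjusted p = 0.947). The difference between these families was not tested, since the stretch was chosen on one of them.

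The edges of the stretch were not alike. The first member, Glyma.16G168000, had means of 54.6 ± 11.8 and 83.6 ± 10.3 CPM (SD, n = 6 each) in NRP(D/E)2-RNAi transgenic and non-transgenic leaves, and the last, Glyma.16G174000, had 1.19 ± 0.71 and 0.40 ± 0.44 CPM. Neither was called in the other families: the log2 fold change of Glyma.16G168000 was -0.10 ± 0.17 in NRPE1-RNAi and -0.30 ± 0.39 in NRPD1-RNAi, with signs that turned when 1 transgenic plant was left out, and that of Glyma.16G174000 was 1.26 ± 0.48 in NRPE1-RNAi. Just before the stretch, Glyma.16G167800 and Glyma.16G167900 had log2 fold changes of -0.0038 ± 0.12 and -0.04 ± 0.12 for NRP(D/E)2-RNAi and -0.01 ± 0.14 and 0.10 ± 0.11 for NRPE1-RNAi. Just after it, Glyma.16G174100 had 1.32 ± 0.55 for NRP(D/E)2-RNAi and 1.55 ± 0.43 for NRPE1-RNAi, values like those inside, and Glyma.16G174200 did not pass the filter. Among the 30 identifiers before the stretch, the median log2 fold change was -0.27 for NRP(D/E)2-RNAi and -0.02 for NRPE1-RNAi, and the median Jack to Mustang difference 0.37. Among the 30 identifiers after it, the medians were 1.10 in NRP(D/E)2-RNAi, where 6 of 22 were called higher, 0.63 in NRPE1-RNAi, where 0 of 23 were called higher and 2 lower, and -2.15 for Jack against Mustang. Further along, a window from Glyma.16G186000 to Glyma.16G194000 was picked with earlier results of these data known. There 11 of 20 tested genes were called higher in NRP(D/E)2-RNAi and 17 of 26 in NRPE1-RNAi, which describes that choice. Over all tested genes, 8.6% were called higher in NRP(D/E)2-RNAi, and 1.19% higher and 0.776% lower in NRPE1-RNAi.

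**Figure D5:**
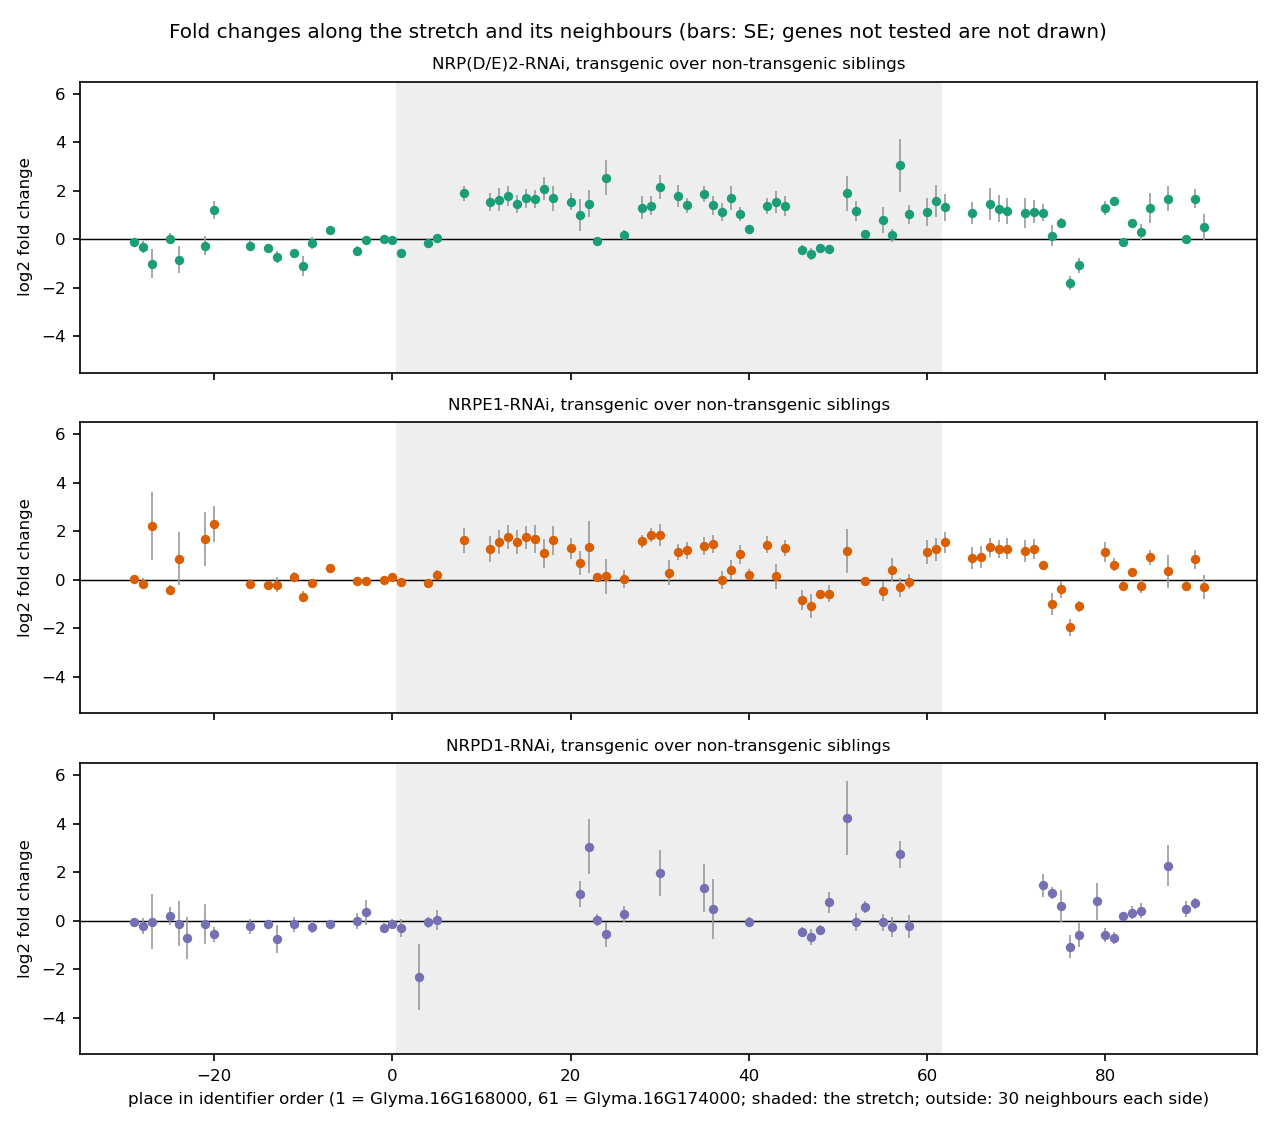
Log2 fold change of transgenic over non-transgenic siblings (y axis, with SE bars) for the members (shaded) and 30 neighbours on each side, by place in identifier order, in each of the 3 families. In the Mustang families most members from place 8 onward lie over 1, the members before it lie near 0 or below, and some points continue over 1 past the end of the shaded part, while in NRPD1-RNAi most points lie near 0 and fewer genes passed the filter.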

How the data were processed

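Leaf poly(A) RNA of 30 soybean plants was analysed from the deposited tables, which hold raw counts of reads per gene made by the authors, without normalization. Per the submitters' processing notes FastQC 0.11.5, STAR 2.5.3a and edgeR were used, with no roles given; the genome build, annotation and counting tool are not given in the sources used here. Library totals were between 10049997 and 21763621 counts, and PCR copies could not be removed, so intervals and floors cover counting error only.

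Groups followed the labels. Within each family, genes kept by filterByExpr were tested on TMM-scaled counts with edgeR's quasi-likelihood test (edgeR 4.0.16, limma 3.58.1, R 4.3.3) and Benjamini-Hochberg adjustment, at 0.05. One model over 18 libraries gave the difference of effects and the comparison of non-transgenic groups. The analysis code was tested on simulated data. Standard errors are derived from the F statistic. A floor is 3 counts over a group. Figures used Python 3.11.15 and matplotlib 3.10.9.

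The members and lists were chosen with earlier results of these data known. Named are members called in a test other than NRP(D/E)2-RNAi (up to 15 each), the 10 largest changes in NRP(D/E)2-RNAi, the 3 with most counts, the most negative 3 in each Mustang family and the ends with their neighbours; others were chosen after their values were seen. Alternatives were RLE (median-ratio) factors, total counts, no filter, DESeq2 1.42.0, all 30 libraries in 1 model, a replicate block and leaving out each library.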

Additional observations from a re-analysis of the deposited data

Results flagged for a closer look

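Among the 27 named members in the 4 groups of 6 plants, 108 sets of 6 values were examined, and 4 held a plant whose gap to the nearest other plant was large against the whole range of its group. By chance about 1 set in 20 does. Glyma.16G168700 stood at 0.448 CPM and Glyma.16G170100 at 2.18 CPM in NRP(D/E)2-RNAi non-transgenic replicate 3, the plant that was the lowest of its group for 25 of the 43 expressed members. Glyma.16G171100 stood at 3.0 CPM in NRPE1-RNAi transgenic replicate 1, the lowest of its group for 23 members. Glyma.16G172300 stood at 25.8 CPM in NRPE1-RNAi non-transgenic replicate 2, the highest of its group for 12 members.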

How the results depend on the processing

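The member counts moved most in NRPE1-RNAi. There the 2 calls became 8 with all 30 libraries in 1 model, 15 with DESeq2 and 1 with the replicate block, and ranged from 2 to 11 when 1 library was left out. The count of 22 in NRP(D/E)2-RNAi was 14 with the replicate block and 29 with DESeq2, and ranged from 14 to 24 when 1 library was left out. DESeq2 gave 1 call in NRPD1-RNAi and 1 in the difference of effects, each 0 with edgeR, and the difference ranged from 0 to 1 with 1 library left out. Calls lower in Jack stayed between 30 and 32. Over all genes, the replicate block gave 2198 calls against 5037 without it for NRP(D/E)2-RNAi, 293 against 618 for NRPE1-RNAi, 0 against 5 for NRPD1-RNAi and 15 against 55 for the difference, while DESeq2 gave 8052, 1980, 532 and 277, and all 30 libraries gave 1415 in NRPE1-RNAi, 208 in NRPD1-RNAi and 129 in the difference. Total count scaling changed higher calls in NRP(D/E)2-RNAi to 3390 of 4887 from 2734 of 5037. Glyma.16G168000 turned sign without NRPD1-RNAi transgenic replicate 3 (log2 fold change 0.0066, and between -0.58 and 0.0066 over single libraries left out) and, without NRPE1-RNAi transgenic replicate 6, in NRPE1-RNAi (0.011). Glyma.16G170800 kept its NRPE1-RNAi call in all 18 alternatives (edgeR or DESeq2 adjusted p at most 0.0383). The deviations of same-numbered transgenic and non-transgenic siblings, not their levels, were also correlated. The correlations lay between -0.35 and 0.27 within NRP(D/E)2-RNAi, -0.42 and 0.44 within NRPE1-RNAi, and -0.43 and -0.23 within NRPD1-RNAi. In these families 1 of 6, 2 of 6 and 0 of 3 plants correlated best with their own number. With so few pairs this does not settle whether the numbers pair plants, and the replicate block is given only as an alternative. Causes were not tested. At these depths a level near 0.1 CPM rests on 1 to 3 counts, which limits the Jack values.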
